A study of Chlamydomonas reinhardtii with 21 samples.

Results

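The transcriptomes of the Chlamydomonas reinhardtii strains UVM4 and UVM11, which carry different point mutations in the gene of the same histone deacetylase, were compared directly. The comparison used the 4 UVM4 and the 4 UVM11 cultures of the first batch, 8 of the 21 libraries of the series, chosen by their strain labels and batch. It covered 15425 of 17741 gene models, those with a mean above 0.1 FPKM (fragments per kilobase of gene, scaled to the mapped fragments of the library) over all 21 libraries. Both strains were obtained by UV mutagenesis of Elow47 and were selected for high transgene expression. Elow47 is a transformant of the cell wall-deficient (cw15) strain CC-4350 with ARG7 as marker and with CRY1-1, which makes cells resistant to emetine, so the 3 strains share these transgenes. UVM4 carries the allele srta-2, a glycine-to-serine exchange in SRTA, and UVM11 the allele srta-1, a proline-to-leucine exchange. Each mutant is 1 clone with further UV-induced variants of its own, and a difference between the clones cannot be told apart into an effect of the srta alleles and one of the other variants. All cultures were grown mixotrophically in liquid acetate medium (TAP) under continuous light. The 4 Elow47 cultures of the first batch and the 3 UVM11 cultures of the second batch are set beside the mutants for their levels. The second batch also held 3 cultures each of UVM11-C1 and UVM11-C9, UVM11 transformants that carry the wild-type SRTA sequence. All 21 libraries enter the statistical model, so the spread behind the intervals and p-values comes from all of them.

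SRTA belongs to the Sir2 family of histone deacetylases, which remove acetyl groups from lysines and consume NAD+ in the reaction. Histone acetylation is generally found at transcribed genes, and its removal accompanies silencing. In Chlamydomonas, transgenes are silenced efficiently, and UVM4 and UVM11 are used as hosts because they express transgenes well. The 2 SRTA alleles are shown because they define the strains. On chromosome 10 of version 5 of the genome, with positions counted on the reference strand, the change is G5936624A in UVM4 and C5938921T in UVM11. Both lie within Cre10.g462200 (SRTA, chromosome 10, 5935593 to 5941064).

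UVM4 and UVM11 differed in few genes. A differentially expressed gene (DEG) had an absolute log2 difference above 1 and an adjusted p below 0.01 in limma, with Benjamini-Hochberg adjustment over all tested genes. There were 132 DEGs, or 0.856% of the tested genes. Of these, 60 (0.389%) were higher in UVM4 and 72 (0.467%) were higher in UVM11. The log2 difference, always UVM4 minus UVM11 on the log2(FPKM + 0.1) scale, had a median of 0.01 over all tested genes and was smaller than 0.5 in either direction in 95.1% of them. With no threshold on its size, 732 genes (4.75%) had an adjusted p below 0.01, 379 (2.46%) of them higher in UVM4 and 353 (2.29%) higher in UVM11. The 4 cultures of a mutant did not overlap with the 4 of the other in any of the 132 DEGs, and they did not overlap in 22.0% of all tested genes. No source states that the 4 cultures of a strain were grown from separate stocks. The p-values therefore measure only the spread between cultures within a group, taken over all 21 libraries.

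The largest differences were found among the genes higher in UVM11. The median absolute log2 difference was 1.74 in the DEGs higher in UVM11 and 1.35 in those higher in UVM4. Absolute differences above 3 on the log2 scale occurred in 14 DEGs higher in UVM11 and in 2 higher in UVM4. DEGs were mostly of low abundance: the median of the mean FPKM over the 8 libraries was 1.62 in both directions, compared to 5.52 over all tested genes. A mean below 1 FPKM was found in 47 DEGs, and 15 DEGs had a mean above 10 FPKM. The mean of the lower mutant was below 0.1 FPKM in 19 of the DEGs higher in UVM11 and in 3 of those higher in UVM4, so that their differences depend on the added 0.1. With log2(FPKM + 1) instead, 57 DEGs were found, 20 higher in UVM4 and 37 higher in UVM11.

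**Figure D1:**
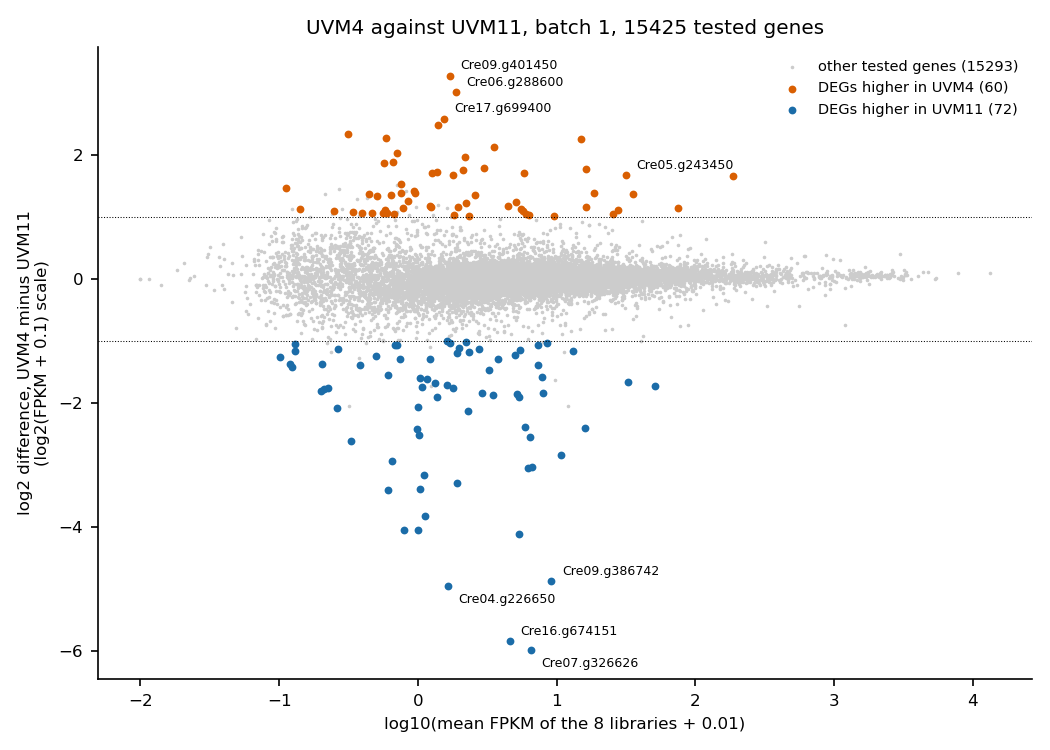
Log2 difference between UVM4 and UVM11 (vertical axis, log2(FPKM + 0.1) scale) against the log10 of the mean FPKM of the 8 libraries + 0.01 (horizontal axis), 1 point per tested gene. The 60 DEGs higher in UVM4 reach 3.27 and the 72 DEGs higher in UVM11 reach -6.0, while most genes lie between the dotted lines at -1 and 1.

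The libraries were of similar depth. The number of reads is unknown, but the relative depth estimated from the smallest FPKM steps of rarely detected genes ranged from 0.845 to 1.02 for the UVM4 libraries, and for UVM11 from 0.946 to 1.25. The deepest of them, UVM11 replicate 4, also had the fewest genes listed at 0 (1546, compared to 1602 to 1686 in the other 7). Replicate cultures had a correlation of at least 0.997 across genes in both mutants.

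Transcript levels of SRTA were alike in both mutants. They were 3.48, 3.51, 3.10 and 3.89 FPKM in UVM4 and 3.28, 3.71, 3.34 and 3.71 FPKM in UVM11, and the cultures overlapped. The log2 difference was -0.01, with a 95% interval from -0.21 to 0.19 (adjusted p = 0.975 in limma). A two-sided exact permutation test of the 4 against 4 FPKM values gave p = 0.886, where 0.0286 is the smallest p this design allows. In Elow47 the levels ranged from 2.65 to 3.99 FPKM. Since both alleles are point mutations, the transcript level does not check the strain labels.

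None of the other 16 annotated histone deacetylase genes was a DEG either (0.856% of all tested genes were). The family comprises the other Sir2-type genes SRTB and SRTC and the genes HDA1 to HDA14. The 17 genes had a median log2 difference of -0.05, compared to 0.01 over all tested genes. At unadjusted p below 0.05 there were 2 of 17, compared to 23.2% of all tested genes, and no gene passed 0.05 after adjustment in limma. HDA11 (Cre11.g469600) came closest, with 7.91, 7.82, 7.20 and 7.78 FPKM in UVM4 and 8.75, 9.18, 8.75 and 8.86 FPKM in UVM11. It was the only one of the 17 whose cultures did not overlap (22.0% of all tested genes did not), with a log2 difference of -0.21 (95% interval -0.35 to -0.07, adjusted p = 0.0622). SRTB (Cre12.g524650), the least abundant of the family by FPKM, had the widest interval. Its levels were 0.740, 0.916, 1.09 and 0.755 FPKM in UVM4 and 0.703, 0.424, 0.810 and 0.758 FPKM in UVM11, with a log2 difference of 0.35 (95% interval -0.08 to 0.78). HDA7 (Cre09.g387393), the most abundant, had 31.8 to 34.1 FPKM in UVM4 and 30.4 to 32.3 FPKM in UVM11. All 17 intervals lay between -1 and 1, so that a difference of the size required of a DEG lies outside them.

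**Figure D2:**
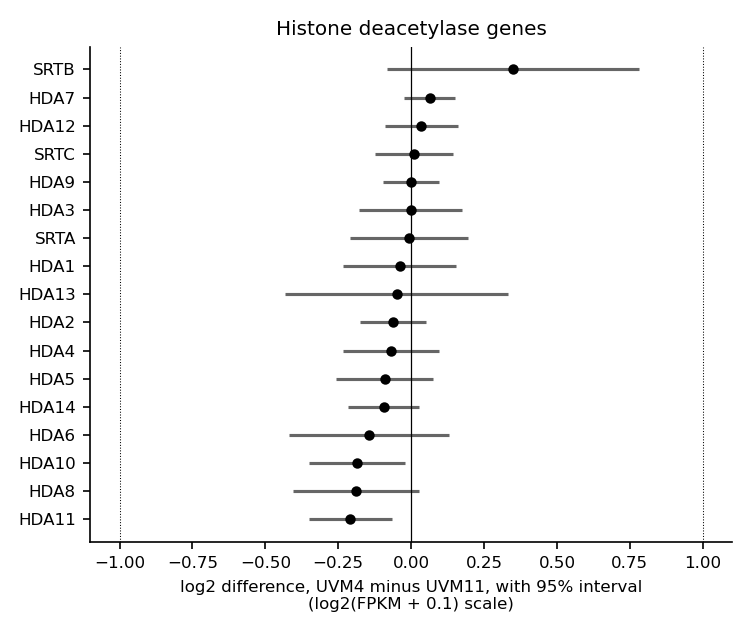
Log2 difference between UVM4 and UVM11 with its 95% interval for the 17 histone deacetylase genes, ordered by the difference. Dotted lines mark -1 and 1. SRTA lies at -0.01, and the extremes are HDA11 at -0.21 and SRTB at 0.35.

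Among the DEGs higher in UVM11, several were near 0 FPKM in UVM4. Cre07.g326626 (chromosome 7, 2156932 to 2159693) had 13.4, 13.9, 12.2 and 12.1 FPKM in UVM11 and 0.0650, 0.0230, 0.153 and 0.234 FPKM in UVM4. Its log2 difference of -6.0 (SE 0.21, adjusted p = 1.62e-14) was the largest of all genes. Cre16.g674151 (chromosome 16, 6342612 to 6344005) was close to it, with 9.49, 8.46, 9.62 and 9.11 FPKM in UVM11 and between 0.0389 and 0.0916 FPKM in UVM4 (-5.85, SE 0.20). Both genes were listed at 0 in most Elow47 cultures, with no value above 0.0383 FPKM. Cre04.g226650 (chromosome 4, 3244339 to 3250690) had 3.45, 3.21, 3.10 and 3.32 FPKM in UVM11 and at most 0.0170 FPKM in UVM4 (-4.96, SE 0.10). Cre03.g177800 (chromosome 3, 4706099 to 4708184) had 2.11, 2.53, 2.2 and 1.81 FPKM in UVM11 and 0.0373 to 0.0878 FPKM in UVM4 (-3.83, SE 0.25). The files and the reference table used here give no function for these genes.

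Cre09.g386742 (chromosome 9, 191266 to 193530) differed between the mutants although both were above Elow47. It had 17.7, 17.8, 17.8 and 18.0 FPKM in UVM11, compared to 0.508, 0.515, 0.494 and 0.519 FPKM in UVM4 and at most 0.0249 FPKM in Elow47. The log2 difference was -4.88 (SE 0.13, adjusted p = 1.44e-16). In the UVM11 cultures of the second batch the level was 0.471, 0.597 and 0.647 FPKM, which is the level of UVM4, so the difference was not seen with these cultures. Cre16.g682200 (chromosome 16, 5320206 to 5322491) had 1.46, 0.749, 1.50 and 1.00 FPKM in UVM11, 0 FPKM in 3 UVM4 cultures and 0.0800 FPKM in UVM4 replicate 4 (-3.42, SE 0.33). It too was lower in the second batch of UVM11, at 0.138 to 0.291 FPKM.

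In the opposite direction, Cre09.g401450 (chromosome 9, 881429 to 887137) had the largest difference. It had 3.44, 3.18, 2.96 and 3.01 FPKM in UVM4 and 0.263, 0.251, 0.269 and 0.169 FPKM in UVM11 (3.27, SE 0.11, adjusted p = 9.98e-15). Elow47 lay between the mutants at 0.762 to 0.965 FPKM, while UVM11 of the second batch was at 2.96 to 3.58 FPKM, the level of UVM4. Cre06.g288600 (chromosome 6, 5924072 to 5930840) had 3.36, 3.43, 3.34 and 3.50 FPKM in UVM4 and 0.373, 0.394, 0.324 and 0.269 FPKM in UVM11 (3.0, SE 0.15). Here the parent lay between the mutants but nearer to UVM11, with 0.578 to 0.766 FPKM. Cre17.g699400 (chromosome 17, 501738 to 505369) showed the reverse, since its 2.63, 2.99, 2.37 and 2.81 FPKM in UVM4 were like the 2.68 to 3.33 FPKM of Elow47. UVM11 had 0.536, 0.240, 0.412 and 0.325 FPKM (2.58, SE 0.20) and remained low in the second batch at 0.126 to 0.348 FPKM.

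A further gene of higher level was Cre10.g425850 (chromosome 10, 1158096 to 1161387), with 26.5, 22.9, 25.8 and 24.1 FPKM in UVM4 and 5.66, 5.78, 4.42 and 4.67 FPKM in UVM11 (2.26, SE 0.15). Cre02.g089400 (chromosome 2, 2157080 to 2162325) had 6.18, 4.92, 5.60 and 6.51 FPKM in UVM4 and 1.33, 0.920, 1.35 and 1.46 FPKM in UVM11 (2.12, SE 0.19). In both genes the Elow47 cultures lay between the mutants, with 6.42 to 8.68 FPKM and 1.73 to 2.39 FPKM, respectively. Of the remaining genes among the 10 largest in this direction, 3 were of low abundance, and Cre02.g100700 and Cre13.g606300 are described with the study's list. Cre17.g743200 had 0.557 to 0.607 FPKM in UVM4 and 0.0166 to 0.0538 FPKM in UVM11 (2.34, SE 0.18), and Cre12.g519651 had 0.852 to 1.19 and 0.0435 to 0.192 FPKM (2.27, SE 0.28). Cre07.g335100 had 0.678 to 1.50 FPKM in UVM4 and 0.117 to 0.303 FPKM in UVM11 (2.02, SE 0.28). These 3 low genes were below a log2 difference of 1 with log2(FPKM + 1), at 0.61, 0.83 and 0.83.

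**Figure D3:**
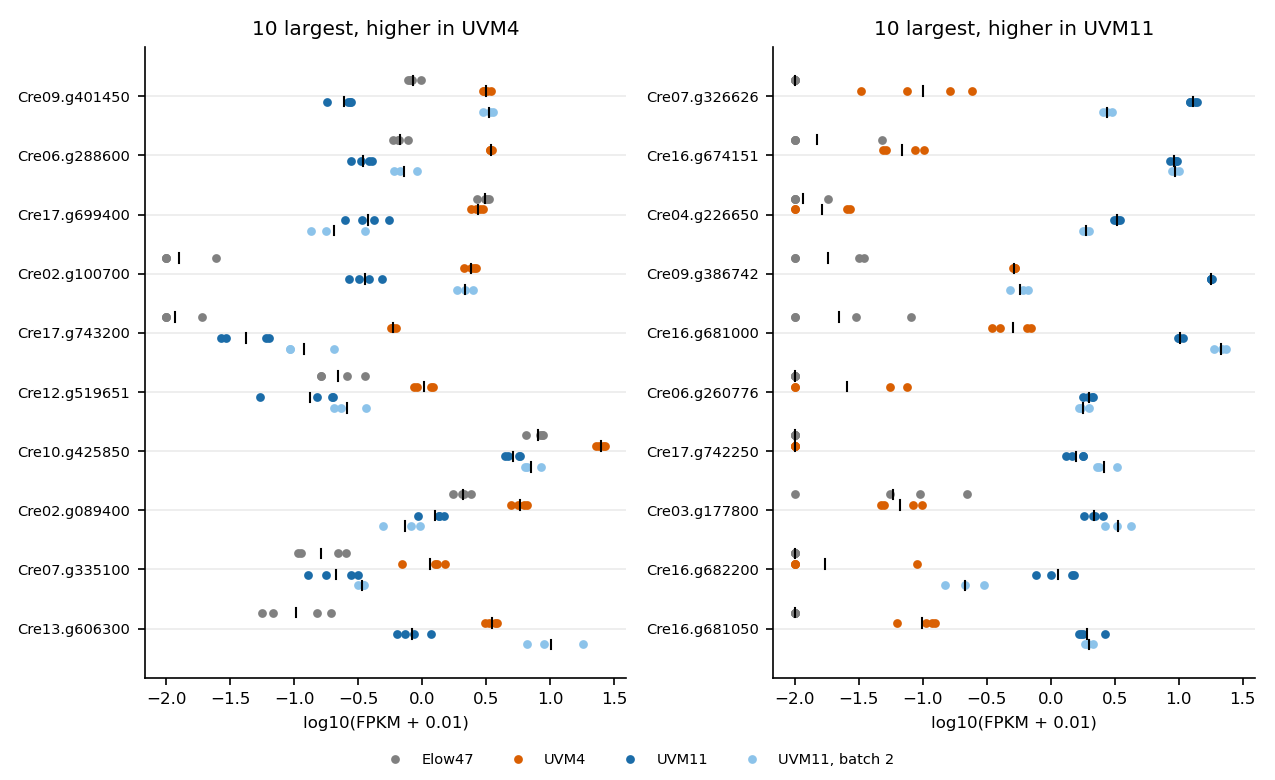
Expression of the 10 DEGs of largest difference in each direction, as log10(FPKM + 0.01), with 1 point per culture and a bar at the group's mean of the log values. Grey, Elow47; orange, UVM4; dark blue, UVM11; light blue, UVM11 of the second batch. UVM4 and UVM11 points of the first batch do not overlap in any of the 20 genes, whereas the second-batch UVM11 points lie with or beside UVM4 in Cre09.g401450, Cre02.g100700 and Cre09.g386742 and above UVM4 in Cre13.g606300.

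By FPKM level, the most abundant DEGs did not have the largest differences of their direction, and their differences lay on both sides of its median. The 5 most abundant higher in UVM4 had log2 differences from 1.10 to 1.67, with a median of 1.35 over all DEGs of that direction. The 5 most abundant higher in UVM11 ranged from -2.85 to -1.17, with a median absolute difference of 1.74 over all DEGs of that direction. The genes described here were chosen after their values were seen. Cre09.g397660 (chromosome 9, 4864244 to 4867680) had 283, 277, 286 and 295 FPKM in UVM4 and 93.9, 94.0, 84.9 and 88.0 FPKM in UVM11 (1.66, SE 0.06), with Elow47 between them at 144 to 151 FPKM. Cre03.g176150 (chromosome 3, 4485713 to 4487523) had 102, 99.9, 95.3 and 115 FPKM in UVM4 and 43.4 to 49.2 FPKM in UVM11 (1.14, SE 0.08). In this gene Elow47 was at the level of UVM11, at 43.6 to 48.0 FPKM. Cre09.g399626 (chromosome 9, 5243763 to 5249874) was the opposite case, with 18.5, 18.7, 18.8 and 19.5 FPKM in UVM11, 2.43 to 2.74 FPKM in UVM4 and 2.54 to 2.92 FPKM in Elow47 (-2.85, SE 0.07). The most abundant DEG higher in UVM11, Cre06.g271200 (chromosome 6, 2800482 to 2807883), varied widely within UVM11. Its values were 89.9, 162, 29.7 and 45.6 FPKM in UVM11 and 15.3, 25.5, 19.6 and 21.2 FPKM in UVM4 (-1.73, SE 0.36, adjusted p = 0.0033). Without UVM11 replicate 2 the log2 difference was -1.30 (adjusted p = 0.0117), and its adjusted p also exceeded 0.01 without UVM11 replicate 1 (0.0149), UVM4 replicate 1 (0.0142) or UVM4 replicate 3 (0.0111). UVM11 replicate 2 was also highest in Cre05.g236039, at 46.2, 98.9, 25.7 and 36.0 FPKM in UVM11 against 13.7 to 14.3 FPKM in UVM4. In the second batch UVM11 was at 18.6 to 31.5 FPKM for Cre06.g271200, overlapping with UVM4 and with the 18.7 to 28.1 FPKM of Elow47. For Cre05.g236039 it was at 4.69 to 7.42 FPKM, below all UVM4 cultures.

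Levels in the parent strain were set beside those of the mutants, without a test because the comparisons would share libraries. In 102 of the 132 DEGs, Elow47 was nearer on the log2 scale to the mutant with the lower level, and in 30 it was nearer to the higher one. Among the DEGs higher in UVM11, Elow47 was nearer to UVM4 in 61 and nearer to UVM11 in 11. Among those higher in UVM4, it was nearer to UVM11 in 41 and nearer to UVM4 in 19. Over all tested genes it was nearer to UVM4 in 50.3%. The share nearer to the lower mutant was not counted over all tested genes, so the 102 of 132 have no background here. In 15 DEGs higher in UVM11 and 11 higher in UVM4, all 4 Elow47 cultures were below every culture of both mutants, as in Cre09.g386742. In 8 and 10 DEGs, respectively, they lay strictly between the mutants. Neither count was made over all tested genes, so whether they exceed the usual share is unknown.

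The UVM11 cultures of the second batch were nearer to UVM11 than to UVM4 of the first batch in 50 of the 72 DEGs higher in UVM11 and in 33 of the 60 higher in UVM4. This was the case in 54.4% of all tested genes. Strain and batch cannot be told apart in this side-by-side view for UVM4, which was grown in the first batch only. All 3 second-batch UVM11 cultures exceeded all 4 UVM4 cultures in 56 of the 72 DEGs higher in UVM11 (29.1% of all tested genes) and were below all of them in 6. They were below all 4 UVM4 cultures in 35 of the 60 DEGs higher in UVM4 (30.9% of all tested genes) and exceeded all of them in 10. Both UVM11 groups were compared with the same UVM4 cultures, so these counts are no second test.

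**Figure D4:**
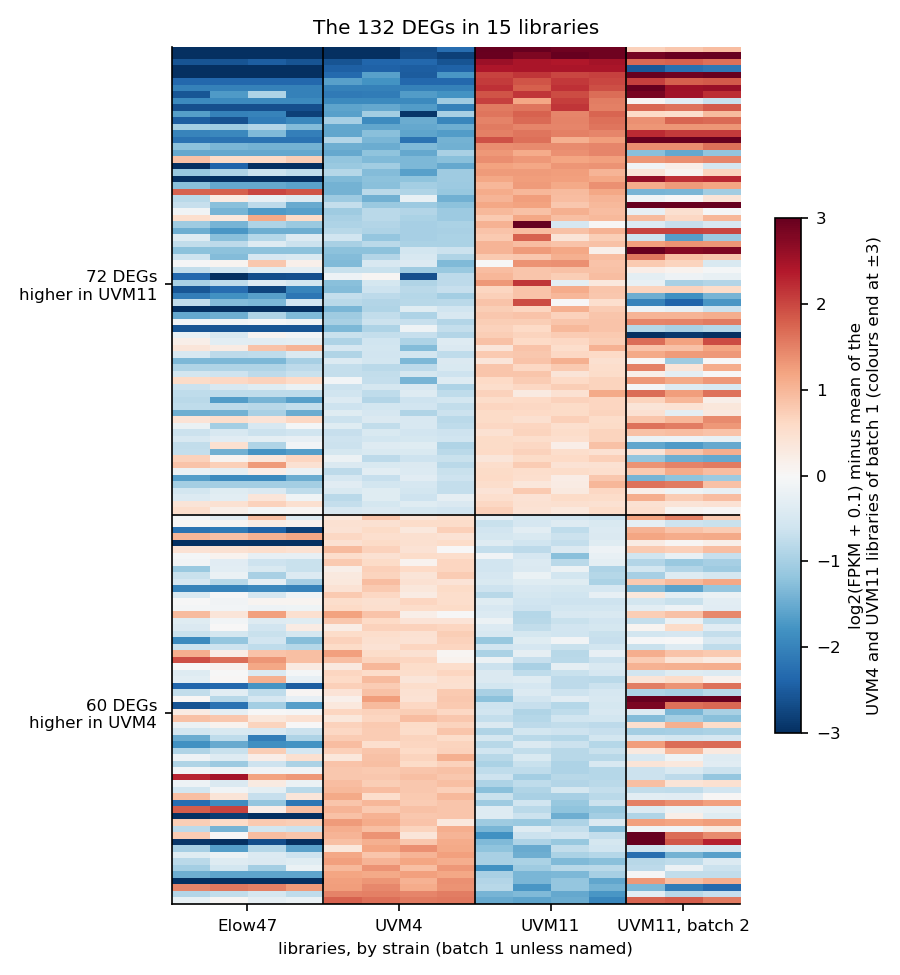
The 132 DEGs (rows, ordered by log2 difference) in the Elow47, UVM4 and UVM11 libraries of the first batch and the UVM11 libraries of the second batch. Colours show log2(FPKM + 0.1) minus the mean of the 8 UVM4 and UVM11 libraries. In the upper block of 72 DEGs higher in UVM11, the Elow47 columns mostly share the blue of UVM4. The darker single cells in UVM11 belong to replicate 2, and the second-batch columns are mixed.

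In the second batch, UVM11 was accompanied by UVM11-C1 and UVM11-C9, with 3 cultures each. These are UVM11 strains that received a FLAG-tagged wild-type SRTA sequence together with a hygromycin resistance gene. They had been kept on medium with hygromycin for years before the sequencing. An effect of SRTA therefore cannot be told apart here from one of the marker or of this upkeep. Mean levels of these 3 groups are given side by side, in the order UVM11, UVM11-C1 and UVM11-C9. Some genes higher in UVM11 of the first batch were near 0 in both complemented strains. Cre07.g326626 had 2.76, 0 and 0.0267 FPKM, Cre16.g674151 had 9.38, 0.188 and 0.0239 FPKM, and Cre09.g386742 had 0.572, 0.00645 and 0.0203 FPKM. In Cre07.g326626 and Cre09.g386742 the level of UVM11 itself was lower in this batch than the 12.9 and 17.8 FPKM of the first. Others had similar levels in the 3 strains. Cre04.g226650 had 1.88, 2.23 and 2.35 FPKM, Cre16.g681000 had 21.3, 19.8 and 14.8 FPKM, and Cre09.g399626 had 19.7, 19.3 and 23.5 FPKM. The columns of UVM11-C1 are distinguished from those of its parent solely by an upper- or lower-case letter.

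The study lists 18 genes as raised in both mutants and lowered in both complemented strains. The list was chosen on these samples and is therefore not independent of them. Of the 18, 3 were DEGs higher in UVM4 and 3 were DEGs higher in UVM11, compared to 0.389% and 0.467% of all tested genes. Their median log2 difference was 0.23, compared to 0.01 over all tested genes. Cre07.g326626 and Cre09.g386742, described above, are members. Cre16.g667550 (chromosome 16, 4349919 to 4353303) had 0.862, 0.798, 1.08 and 0.974 FPKM in UVM11, 0.136, 0.217, 0.441 and 0.267 FPKM in UVM4 and 0 in all Elow47 cultures (-1.55, SE 0.20). UVM11 of the second batch was at the level of UVM4, at 0.205 to 0.230 FPKM. Cre13.g606300, annotated as a 2'-5' oligoadenylate synthase, an enzyme type that in animals acts in antiviral defence, had 3.30, 3.71, 3.05 and 3.84 FPKM in UVM4 and 0.619, 0.852, 0.725 and 1.15 FPKM in UVM11 (1.96, SE 0.27, adjusted p = 3.48e-05). Both were above the 0.0455 to 0.184 FPKM of Elow47. With the second batch of UVM11 the order was turned, since these cultures had 17.9, 6.52 and 8.88 FPKM. Cre17.g729101, annotated as a pherophorin, a family of extracellular matrix glycoproteins of volvocine algae, had 1.32, 0.969, 1.07 and 1.09 FPKM in UVM4 and 0.317 to 0.454 FPKM in UVM11 (1.38, SE 0.15). Here too the second batch of UVM11 was above UVM4, at 1.69 to 2.35 FPKM. Cre02.g100700 had 2.38, 2.53, 2.09 and 2.61 FPKM in UVM4 and 0.474, 0.311, 0.370 and 0.259 FPKM in UVM11 (2.48, SE 0.21), with Elow47 at no more than 0.0142 FPKM and the second batch of UVM11 at 1.86 to 2.48 FPKM.

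The other 12 genes of the list were no DEGs, but 4 of them had an adjusted p below 0.01 and missed only the size threshold. Cre11.g474650 (0.94, adjusted p = 0.000732), Cre03.g201417 (0.94, adjusted p = 0.00411) and Cre01.g042700 (0.93, adjusted p = 0.00889) were higher in UVM4, and Cre02.g095039 (-0.55, adjusted p = 0.00521) was higher in UVM11. Cre14.g630000, a ketoacid isomerase-like protein with a SnoaL-like domain, had 1.84 to 2.23 FPKM in UVM4 and 1.52 to 1.74 FPKM in UVM11. The log2 difference was 0.26 (95% interval -0.07 to 0.59). Cre05.g245500, a flagellar associated protein with ankyrin repeats, had a log2 difference of -0.11 (95% interval -0.41 to 0.19). Cre01.g041752, annotated as a serine/threonine protein kinase, had one of -0.51 (95% interval -0.93 to -0.09, adjusted p = 0.129). For these 3 genes, missing the threshold does not show that the mutants are alike.

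Private variants and insertions were examined next, since they distinguish the clones. In the study's variant list, 152 tested genes had a variant within the gene in UVM4 only, and 2 of them were DEGs. For UVM11 only, 161 genes were tested and 3 were DEGs. The background is 0.856% of tested genes, and 127 of the 132 DEGs had no such variant. Among genes with a protein-changing variant, 1 of 29 tested genes was a DEG for UVM4 and 1 of 30 for UVM11. Cre05.g243450 (chromosome 5, 1562792 to 1571187) has an in-frame deletion of 9 bases in UVM4, shown on the reference strand at chr5:1569668-1569677 with the deleted bases in capitals, since it is the private protein change of the most abundant of these genes.
Cre05.g243450 deletion in UVM4: aCCTCTGCCG
The gene had 50.5, 44.4, 46.8 and 49.9 FPKM in UVM4 and 14.1, 15.7, 14.6 and 15.3 FPKM in UVM11 (1.67, SE 0.14, adjusted p = 2.17e-08). Elow47 had 19.7 to 32.2 FPKM. UVM11 of the second batch, which lacks the deletion according to its strain, was at 34.7 to 50.2 FPKM, overlapping with UVM4. Cre01.g026350 (chromosome 1, 4043946 to 4050197) has a missense variant in UVM11, G4046070A. It had 4.81, 4.60, 4.92 and 4.97 FPKM in UVM11, 1.77, 1.69, 1.73 and 1.51 FPKM in UVM4 and 2.06 to 3.05 FPKM in Elow47 (-1.47, SE 0.16). In the second batch UVM11 was below UVM4, at 0.241 to 0.295 FPKM.

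The other DEGs with a private variant carry it in an intron or as a synonymous change. Cre02.g100600, with a synonymous variant in UVM4, had 2.66, 2.45, 2.41 and 2.31 FPKM in UVM4 and 1.05 to 1.22 FPKM in UVM11 (1.03, SE 0.07). It lies beside the threshold and fell to 0.99 without UVM4 replicate 1 or without UVM11 replicate 3. Elow47 was above both mutants of the first batch, at 3.21 to 3.88 FPKM. Second-batch UVM11 was also above UVM4 in this gene, at 3.78 to 3.98 FPKM. Cre04.g217928, with an intron variant in UVM11, had 2.10, 2.34, 1.97 and 2.10 FPKM in UVM4 and 0.461 to 0.705 FPKM in UVM11 (1.72, SE 0.19). Elow47 had 0.151 to 0.452 FPKM, whereas second-batch UVM11 was above UVM4, at 2.77 to 3.37 FPKM. Cre17.g728750, also with an intron variant in UVM11, had 20.3 to 23.6 FPKM in UVM4 and 9.34 to 10.6 FPKM in UVM11 (1.15, SE 0.08). Here Elow47 (8.24 to 9.74 FPKM) and second-batch UVM11 (8.81 to 11.4 FPKM) overlapped with UVM11 of the first batch. OPR72 (Cre15.g638150), in which each mutant has its own protein-changing variant, was not different, with 0.465 to 0.594 FPKM in UVM4 and 0.531 to 0.641 FPKM in UVM11 (95% interval -0.40 to 0.14). Within the interval of chromosome 10 to which the mutation was mapped, none of 287 tested genes was a DEG (background 0.856%). An unadjusted p below 0.05 was found for 64 of them (background 23.2%), and 4 genes higher in UVM4 and 7 higher in UVM11 had an adjusted p below 0.01 in limma (background 2.46% and 2.29%). These shares were near or below those of all tested genes. Log2 differences in the interval ranged from -2.06 to 1.42, so that the genes at these ends missed only the threshold on the adjusted p.

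Whole-genome sequencing had placed new copies of the transposable elements MRC1 and Tcr3 in single mutants. Of these insertions, 9 of 12 lie within the span of a gene, and 6 of the 9 genes were tested, and the others were below the limit of 0.1 FPKM. In 4 of these the adjusted p was below 0.01 (background 4.75%), and 3 of the 4 were lower in the mutant that has the insertion. Cre17.g700425 (chromosome 17, 638431 to 642164), with MRC1 in UVM4, had 24.3, 28.9, 27.5 and 27.5 FPKM in UVM4, compared to 51.1, 53.7, 55.2 and 56.2 FPKM in UVM11 and 45.3 to 56.9 FPKM in Elow47 (-1.0, SE 0.09, adjusted p = 1.01e-07). Cre03.g156250 (chromosome 3, 2038269 to 2040665), with MRC1 in UVM11, had 60.7, 62.1, 56.0 and 58.0 FPKM in UVM11 and 97.8, 95.5, 97.4 and 93.6 FPKM in UVM4 (0.70, SE 0.08). Elow47 was at 93.3 to 106 FPKM, like UVM4. UVM11 of the second batch had 78.5 to 86.1 FPKM, between UVM11 and UVM4 of the first batch. Cre12.g509700 (chromosome 12, 2060640 to 2063508), with MRC1 in UVM11, had 3.97, 3.92, 4.89 and 4.40 FPKM in UVM11 and 7.77, 7.05, 7.03 and 6.51 FPKM in UVM4 (0.71, SE 0.11). For this gene Elow47 had 6.35 to 8.31 FPKM. UVM11 of the second batch had 5.52 to 6.37 FPKM, again between UVM11 and UVM4 of the first batch. None of these 3 genes reached the size required of a DEG.

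The gene with the Tcr3 copy went the other way. Cre17.g742250 (chromosome 17, 6238708 to 6243214) was listed at 0 FPKM in all 4 UVM4 and all 4 Elow47 cultures, and had 1.76, 1.31, 1.77 and 1.46 FPKM in UVM11, where the insertion is. In the second batch UVM11 had 3.28, 2.28 and 2.36 FPKM. Its fitted log2 difference of -4.06 (SE 0.13, adjusted p = 4.07e-15) depends on the added 0.1, and no fold is given against a group at 0. Whether these fragments come from the gene or from the inserted element was not tested. The tested genes without a call were Cre10.g417650, at 5.60 to 6.45 FPKM in UVM4 with the insertion and 6.95 to 8.01 FPKM in UVM11 (-0.28, SE 0.09, adjusted p = 0.0668, or 0.0073 in a fit of the 8 libraries alone), and Cre17.g723800, at 67.7 to 70.1 and 61.2 to 70.1 FPKM. Of 18 tested genes next to a site, none had an adjusted p below 0.01 in limma (background 4.75%), and 9 had an unadjusted p below 0.05 (background 23.2%). Their log2 differences ranged from -0.40 to 0.24.

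**Figure D5:**
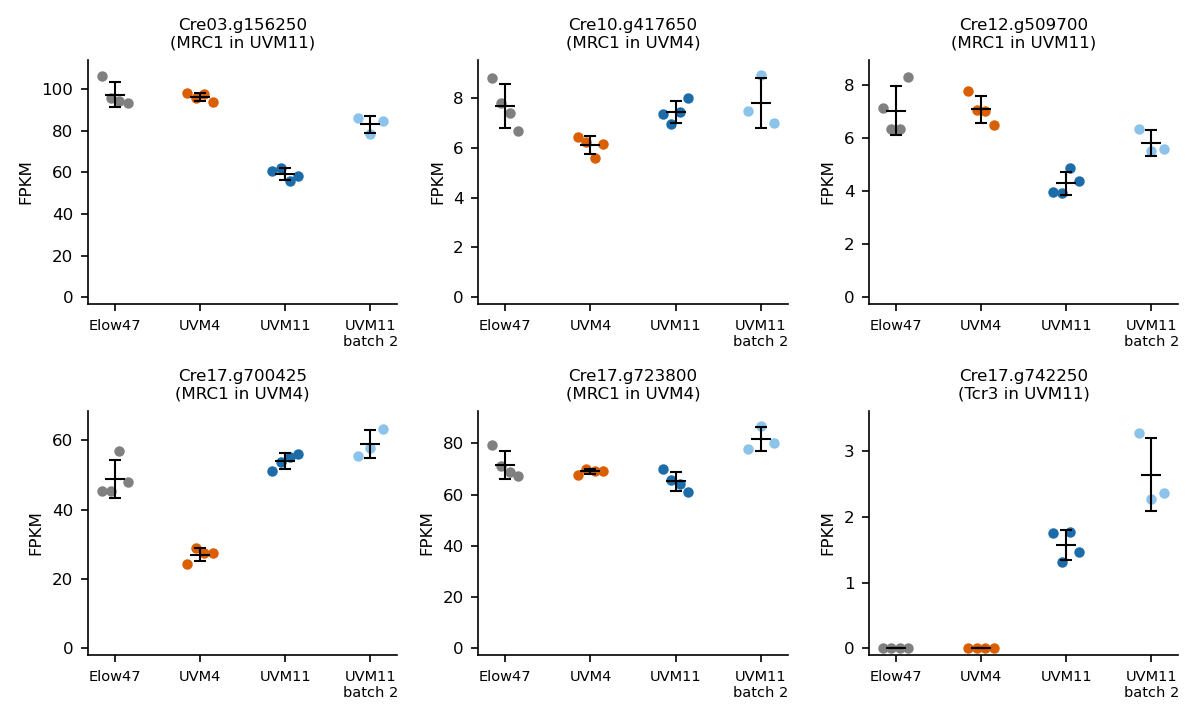
FPKM of the 6 tested genes that hold a transposable element insertion in 1 mutant only (element and mutant in brackets), with 1 point per culture and the group's mean ± SD. In Cre03.g156250, Cre12.g509700 and Cre17.g700425 the mutant with the insertion is the lower one, whereas Cre17.g742250 is above 0 only in UVM11.

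DEGs were found on all chromosomes but 15, where 172 genes were tested and 30 had an unadjusted p below 0.05 (background 0.856% for DEGs and 23.2% for this p). On chromosome 16, all 14 DEGs were higher in UVM11, and on chromosome 10 all 3 were higher in UVM4. Those of chromosome 16 include Cre16.g655450 (3.86, 17.1, 1.25 and 1.86 FPKM in UVM11) and Cre16.g657250 (3.91, 7.84, 2.92 and 3.8 FPKM). In both, UVM11 replicate 2 was far above the other UVM11 cultures. The share of tested genes that were DEGs was highest on chromosome 8 (1.51%), chromosome 5 (1.47%) and chromosome 2 (1.33%). In 4 places, directly neighbouring tested genes were DEGs of the same direction, with 9 genes in all, and all 4 were higher in UVM11. The longest comprised 3 genes on chromosome 16. Cre16.g681000 (5449522 to 5452212) had between 9.88 and 10.8 FPKM in UVM11 and 0.388, 0.694, 0.337 and 0.641 FPKM in UVM4 (-4.11, SE 0.17). Cre16.g681050 (5447326 to 5449421) had 1.71, 1.78, 2.63 and 1.66 FPKM in UVM11 and 0.0527 to 0.114 FPKM in UVM4 (-3.40, SE 0.14). Cre16.g681051 (5444202 to 5446631) was far less abundant, with 0.187 to 0.247 FPKM in UVM11 and at most 0.0444 FPKM in UVM4 (-1.42, SE 0.23, and -0.25 with log2(FPKM + 1)). Another DEG of this region, Cre16.g681200 (5428692 to 5430293), had 26.1, 27.8, 27.3 and 26.0 FPKM in UVM11 and 4.55, 4.90, 4.94 and 5.48 FPKM in UVM4 (-2.41, SE 0.11). It was separated from the others by tested genes that were no DEGs.

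In this region Elow47 was near 0, with at most 0.0701 FPKM for Cre16.g681000 and 0.0419 FPKM for Cre16.g681200, so that both mutants were above their parent in these genes. UVM11 of the second batch reached 18.7 to 23.4 FPKM and 53.0 to 72.6 FPKM, respectively.

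The other groups were pairs. Cre06.g260776 (chromosome 6, 1626194 to 1628349) had 2.09, 1.77, 2.12 and 1.93 FPKM in UVM11 and 0.0645, 0.0456, 0 and 0 FPKM in UVM4 (-4.06, SE 0.15). Its neighbour Cre06.g260750 (1616574 to 1626139) had 6.78 to 7.15 FPKM in UVM11 and 2.66 to 3.08 FPKM in UVM4 (-1.24, SE 0.05). On chromosome 9, Cre09.g397050 (1649752 to 1669100) had 11.3, 10.6, 10.7 and 11.8 FPKM in UVM11 and 1.23, 1.22, 1.24 and 1.32 FPKM in UVM4 (-3.05, SE 0.07). The gene beside it, Cre09.g397100 (1640176 to 1645117), had 7.17 to 8.05 and 3.19 to 3.45 FPKM (-1.15, SE 0.07). In the pair on chromosome 5, Cre05.g236300 and Cre05.g236350 did not exceed 0.273 FPKM in any first-batch culture of either mutant. The latter had an adjusted p above 0.01 without UVM4 replicate 2 (0.0113), UVM4 replicate 4 (0.0120), UVM11 replicate 1 (0.0105) or UVM11 replicate 4 (0.0169). Neighbouring genes can share reads where transcripts overlap, and the use of strand in counting is not stated, so the members of a pair may not be independent. With a window of 50 kb, 20 of the 132 DEGs had another DEG of the same direction nearby. The number to expect for as many genes at any positions was not computed, neither for this window nor for the groups of direct neighbours.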

How the data were processed

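According to the methods, RNA from 21 cultures was sequenced as poly(A) mRNA, whereas the labels name a library kit for total RNA. Alignment was to version 5 of the genome with RNA-STAR (version 2.4.0j). The authors deposited FPKM values per gene model (version 5.5) and culture, computed with cuffdiff (version 2.2.1). The depth in reads is unknown, so precision is given by the spread between cultures. Relative depth came from 713 genes, whose 4817 low values were whole multiples of the smallest step, to within 0.1, in 97.8% of cases. No pair of libraries shared more than 2 nonzero values.

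Values were analysed as log2(FPKM + 0.1) with limma (version 3.58.1, R version 4.3.3), with a variance trend, in 1 model of 6 strain and batch groups (15 residual degrees of freedom). P-values are two-sided and Benjamini-Hochberg adjusted over 15425 genes. The code was tested on simulated data. Python (version 3.11.15), pandas (version 2.3.3), numpy (version 2.4.6), scipy (version 1.17.1) and matplotlib (version 3.10.9) were used for the tables, the exact test and the figures. Alternatives were other pseudocounts, filters, scalings, thresholds and library sets, a replicate block and leaving out each library.

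Named genes were the histone deacetylase genes, the 10 DEGs of largest difference per direction, DEGs with a private protein-changing variant or insertion, groups of 3 neighbouring DEGs, and the largest DEG of each list. Others were chosen after their values were seen. Members and lists were chosen with earlier results of these data known. Of 30 lists by function, none could be used, since the RefSeq table (assembly Chlamydomonas_reinhardtii_v5.5, 17738 genes matched) holds locus tags without gene symbols. Positions come from that table, and names from the study.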

Additional observations from a re-analysis of the deposited data

Results flagged for a closer look

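In 93 groups of 4 cultures, for 31 genes named above, 8 held a value that stood apart from the other 3 cultures by more than Dixon's 95% critical value. Chance gives about 1 in 20 where values are measured, but 5 of the 8 had the other 3 cultures at 0, where any value above 0 is marked whatever its size, so that the count is not comparable with that share. Most were in Elow47. These included a single culture above 0 where the other 3 were listed at 0: replicate 2 in Cre02.g100700 (0.0142 FPKM), replicate 1 in Cre17.g743200 (0.00892 FPKM) and in Cre16.g674151 (0.0383 FPKM), and replicate 3 in Cre04.g226650 (0.00827 FPKM). Elow47 replicate 1 was also apart in Cre10.g425850, at 6.42 FPKM with the next at 8.35 FPKM, and in Cre16.g681051, at 0.112 FPKM with the next at 0.0547 FPKM. In the mutants, UVM4 replicate 4 had 0.0800 FPKM in Cre16.g682200 where the others were at 0, and UVM11 replicate 3 had 2.63 FPKM in Cre16.g681050 with the next at 1.78 FPKM.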

How the results depend on the processing

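The count of 132 DEGs (60 higher in UVM4, 72 higher in UVM11) depended most on how low values and the size threshold were treated. With log2(FPKM + 1) there were 57 (20 and 37), and with genes above a mean of 1 FPKM 87 (37 and 50), where fewer genes are tested. When limma tested against a log2 difference of 1 (treat), 35 were left (8 and 27), as this asks more of each gene. With the remaining settings the count was between 122 and 152. Leaving out 1 library gave 122 to 130 DEGs, 51 to 62 higher in UVM4 and 66 to 78 higher in UVM11, and 98 of the 132 were called whichever library was left out. The log2 difference of SRTA, -0.01, ranged from -0.059 to 0.047 without 1 library and was 0.017 with quantile normalization, where its sign turned. Its sign also turned without UVM4 replicate 3 and without UVM11 replicate 2 or 4. None of the 25 named DEGs changed direction, while 6 of them were no longer DEGs with log2(FPKM + 1) and 8 with treat. The replicate numbers do not pair the cultures of the mutants, whose same-number correlations of deviations were 0.04, 0.07, 0.02 and -0.02. With the replicate number as a block in the 12 libraries of the first batch, 122 DEGs were found (56 and 66), 119 of them shared with the 132, and the SRTA difference was -0.01. The number of reads is unknown, so the effect of depth on the 47 DEGs below 1 FPKM was not tested.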

Other observations

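A short stretch of chromosome 2 held DEGs of both directions. Cre02.g142546 (8827843 to 8829958) and Cre02.g142607 (8835459 to 8848230) were higher in UVM4, with 0.587 to 0.998 FPKM and 0.411 to 0.599 FPKM, compared to 0.262 to 0.418 FPKM and 0.160 to 0.189 FPKM in UVM11. Cre02.g142687 (8906619 to 8908423) and Cre02.g142847 (8945765 to 8947316) were higher in UVM11. The former had 3.40, 3.79, 3.05 and 3.74 FPKM in UVM11 and 0.268, 0.455, 0.0517 and 0.473 FPKM in UVM4 (log2 difference -3.29, SE 0.37), and the latter had 1.59 to 2.15 and 0.312 to 0.734 FPKM (-1.61, SE 0.19). The calls of the first pair were near the size threshold. Cre02.g142546 was at 0.97 without UVM4 replicate 1 and at 0.95 without UVM11 replicate 3, and Cre02.g142607 was at 0.99 without UVM4 replicate 2. These genes were chosen after their values were seen.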
